A study of Mus musculus with 18 samples.

Results

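The genes described are 9 complement components, regulators and receptors of the mouse: C3, C4b, C1ra, Cfb, Cfp, Serping1, Cd55, C3ar1 and C5ar1. They were taken by symbol from a table of 21831 genes measured by RNA sequencing in 18 libraries of cultured peritoneal macrophages. All 9 passed the filter on low counts and were among the 13409 genes tested. All cells came from C57BL/6 mice that lack the LDL receptor. The animals were 6 weeks old, and 3 days before collection they were given 1 mL of a 3% solution of thioglycollate to recruit macrophages to the abdomen. After 4 h of attachment the cells received 20 µM PCN (pregnenolone 16α-carbonitrile), an agonist of mouse PXR, a nuclear receptor that senses foreign compounds, or DMSO as the vehicle, for 12 h. The groups were PXRΔMyeLDLR-/- cells, in which PXR is deleted in the myeloid lineage, with PCN (dMye_PCN, n = 6) or DMSO (dMye_DMSO, n = 6), and floxed PXRF/FLDLR-/- cells with PCN (FF_PCN, n = 3) or DMSO (FF_DMSO, n = 3). The Cre driver is not named in the labels, nor whether replicate libraries are from different mice, and p-values thus reflect variation between libraries that could be technical alone.

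Complement is a protease cascade of blood and tissue fluid. The classical route starts when C1q carries the proteases C1r and C1s to a target and they cleave C4 and C2, and the alternative route is driven by factor B on deposited C3b and stabilised by properdin. Both routes cleave C3, whose fragment C3a acts on the receptor C3ar1, while the fragment of C5 acts on C5ar1. Much of the plasma pool is made by the liver, and macrophages, fibroblasts and mesothelial cells also make complement proteins locally.

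Library totals ran from 21993697 to 30228017 counts, and values are given as CPM, that is counts scaled to the library total. Nr1i2, the gene of PXR, had 8 counts over all 18 libraries and at most 3 in any of them, so the deletion was not detectable at this depth. The summed level of 4 Y-linked genes was 0.463 to 1.49 CPM in dMye_PCN, 0.630 to 0.993 in dMye_DMSO, 123 to 137 in FF_PCN and 113 to 128 in FF_DMSO, so genotype and sex cannot be told apart in these data. Macrophage markers, checked against the labelled cell type, were all detected in every group. They summed to 6170 to 8369 CPM in the dMye libraries and 7155 to 10799 CPM in the FF libraries. Lyz2 was the most abundant of them, with means of 3273 CPM in dMye_PCN, 4060 in dMye_DMSO, 4392 in FF_PCN and 7141 in FF_DMSO. This gene alone thus made up a large part of the sum. Markers of mesothelial cells, which line the cavity, summed to 157 to 199 CPM in dMye and 25.3 to 37.6 CPM in FF libraries. Markers of fibroblasts summed to 562 to 753 CPM in dMye and 154 to 190 CPM in FF libraries.

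Of the 9 genes, 7 stood higher in dMye than in FF macrophages under both agents: C3, C4b, C1ra, Cfb, Cfp, Serping1 and Cd55. The difference was largest for Serping1, at 5.19-fold under PCN and 5.16-fold under DMSO. The anaphylatoxin receptors followed other patterns. C3ar1, the gene with the highest level per length in all groups, did not pass the test in any comparison. C5ar1 fell with PCN to 0.675 of its DMSO level in dMye macrophages and to 0.337 of it in FF macrophages.

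**Figure D1:**
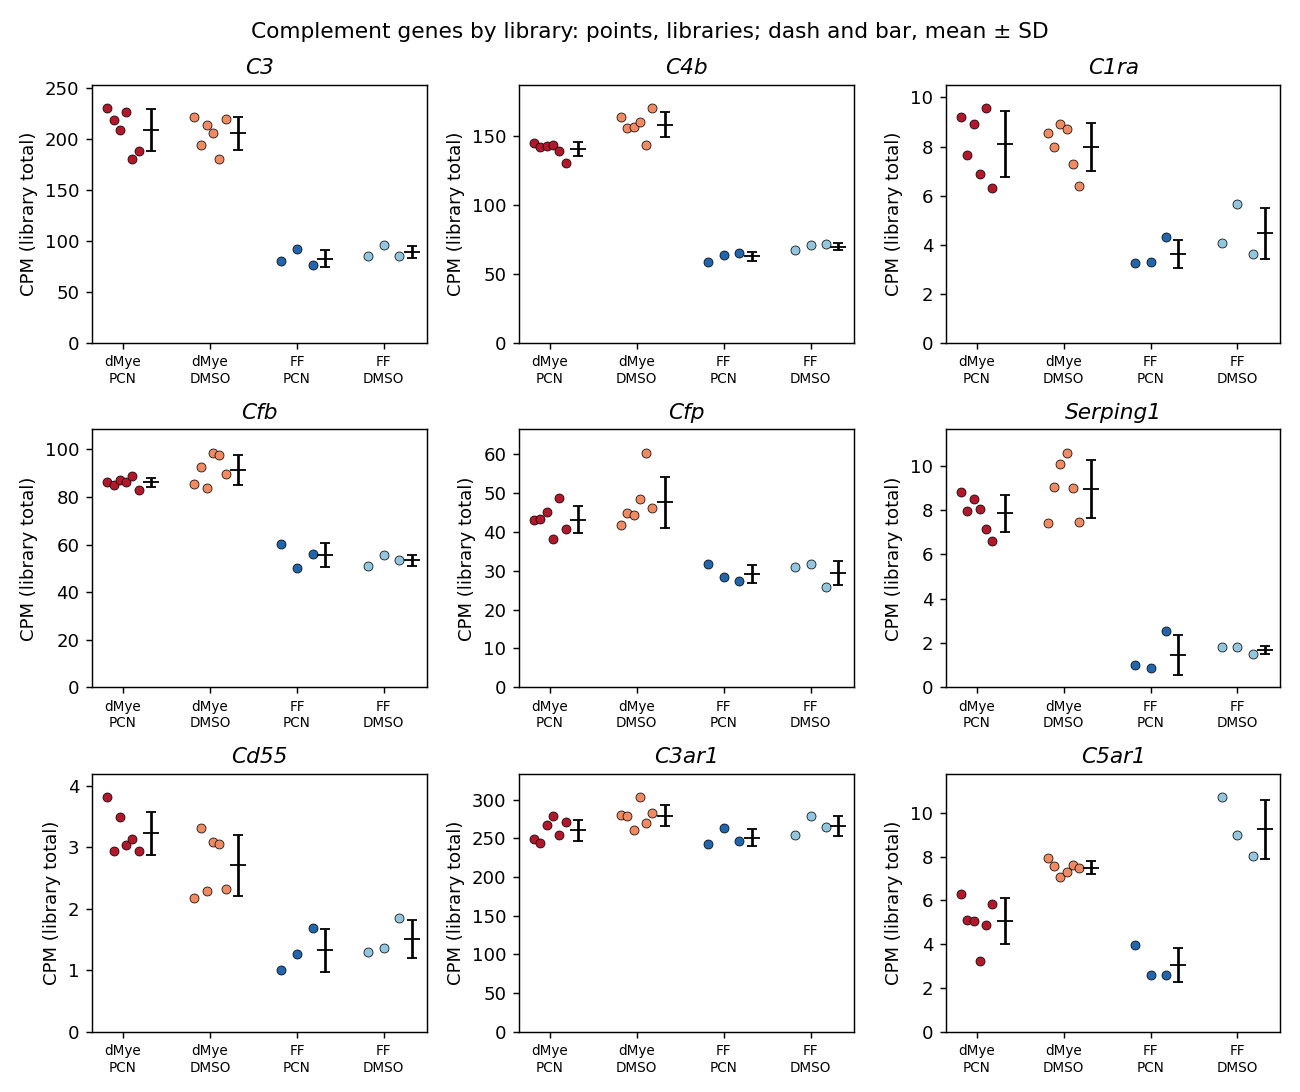
Levels of the 9 complement genes in each library, in CPM of the library total on axes that start at 0. Points are libraries and the dash with its bar is the mean ± SD (n = 6 in each dMye group, n = 3 in each FF group). The dMye libraries lie above the FF libraries for C3, C4b, C1ra, Cfb, Cfp, Serping1 and Cd55, while C3ar1 overlaps throughout and C5ar1 is lowest in the FF_PCN group.

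C3 encodes the protein on which all routes converge (GRCm38 chr17:57203970-57228136, minus strand). It ran from 181 to 230.2 CPM in dMye_PCN libraries (median 214) and from 180.2 to 222 CPM in dMye_DMSO libraries (median 209.9). In FF_PCN libraries it was at 79.9, 91.8 and 76.0 CPM, and in FF_DMSO libraries at 85.7, 96.4 and 85.4 CPM. Every dMye library thus had more C3 than every FF library, and the libraries with PCN and with DMSO overlapped within each genotype. The log2 fold change of dMye over FF was 1.29 (SE 0.0801, edgeR quasi-likelihood adjusted p = 4.12e-11) under PCN and 1.18 (SE 0.0795, adjusted p = 1.8e-10) under DMSO.

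C4b encodes complement C4, which is cleaved by C1s and becomes part of the classical C3 convertase (chr17:34728380-34743882, minus strand). Its level was 131 to 145 CPM in dMye_PCN (median 143) and 143 to 170.1 CPM in dMye_DMSO (median 158). In FF_PCN it was at 58.9, 64.0 and 65.3 CPM, and in FF_DMSO at 67.0, 70.9 and 71.4 CPM. The genotypes were far apart. Within FF the 3 PCN libraries all lay below the 3 DMSO libraries, and within dMye the 2 groups overlapped at the edge. Between genotypes the log2 fold change was 1.11 (SE 0.0508, adjusted p = 1.57e-13) under PCN and 1.15 (SE 0.0506, adjusted p = 9.08e-14) under DMSO. Reads of C4b could be shared with its near-identical copy C4a, which is not among the genes counted.

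C1ra encodes the protease C1r of the first complex (chr6:124512405-124523443, plus strand). It was at 6.33 to 9.56 CPM in dMye_PCN (median 8.30) and 6.37 to 8.91 CPM in dMye_DMSO (median 8.26). The FF libraries had less, at 3.26, 3.29 and 4.30 CPM in FF_PCN and 4.08, 5.65 and 3.64 CPM in FF_DMSO. The lowest dMye library and the highest FF library were 6.33 and 5.65 CPM, so the genotypes stayed apart by a narrow gap. Set over FF, dMye had a log2 fold change of 1.12 (SE 0.169, adjusted p = 2.77e-05) under PCN and 0.81 (SE 0.163, adjusted p = 0.000782) under DMSO. Its copy C1rb had at most 3 counts in any library.

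Serping1 encodes the C1 inhibitor, which inactivates C1r and C1s and also acts on proteases of the contact system (chr2:84765387-84775444, minus strand). The dMye_PCN libraries held 6.60 to 8.83 CPM (median 8.02) and the dMye_DMSO libraries 7.42 to 10.6 CPM (median 9.03). FF_PCN libraries were at 1.01, 0.872 and 2.52 CPM, and FF_DMSO libraries at 1.82, 1.80 and 1.49 CPM. The FF values rest on 22 to 61 counts per library, and the library FF_PCN 3 was well above the other FF_PCN libraries. Between genotypes, dMye over FF, the log2 fold change was 2.38 (SE 0.233, adjusted p = 6.28e-08) under PCN and 2.37 (SE 0.225, adjusted p = 4.46e-08) under DMSO. The transcripts of the inhibitor and of C1r, a protease it blocks, were therefore both higher in dMye libraries.

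Cfb encodes factor B, the serine protease of the alternative C3 convertase (chr17:34856374-34862518, minus strand). It was at 82.8 to 88.9 CPM in dMye_PCN (median 86.3) and 83.6 to 98.5 CPM in dMye_DMSO (median 91.2). The FF_PCN libraries had 60.0, 50.1 and 56.2 CPM, and the FF_DMSO libraries 50.9, 55.6 and 53.5 CPM. The genotypes did not overlap, and the agents overlapped in both. Factor B thus had a log2 fold change of dMye over FF of 0.58 (SE 0.0677, adjusted p = 7.23e-07) under PCN and 0.75 (SE 0.068, adjusted p = 1.98e-08) under DMSO. The annotation places the gene model Gm20547 on the same strand over Cfb, with 50 counts in all libraries together.

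Cfp encodes properdin, a myeloid cell product that stabilises the alternative convertase (chrX:20925454-20931555, minus strand). Levels were 38.1 to 48.7 CPM in dMye_PCN (median 43.1) and 41.6 to 60.3 CPM in dMye_DMSO (median 45.4). The FF_PCN libraries had 31.8, 28.3 and 27.3 CPM, and the FF_DMSO libraries 30.9, 31.6 and 25.9 CPM. Again no FF library reached the lowest dMye library, and the difference was the smallest of the 7 genes. It came to a log2 fold change of 0.52 (SE 0.11, adjusted p = 0.00122) under PCN and 0.67 (SE 0.11, adjusted p = 0.000104) under DMSO. Cfp lies on the X chromosome, and sex followed genotype here.

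Cd55 encodes decay-accelerating factor, a membrane protein that takes apart C3 convertases on the cell's own surface (chr1:130439027-130462744, minus strand). It was the lowest of the 9 genes per length in all groups. Its level was 2.94 to 3.81 CPM in dMye_PCN (median 3.09) and 2.17 to 3.32 CPM in dMye_DMSO (median 2.68). FF_PCN libraries were at 1.01, 1.27 and 1.69 CPM, and FF_DMSO libraries at 1.29, 1.36 and 1.85 CPM. The genotypes did not overlap under either agent, on 26 to 51 counts per FF library. The log2 fold change of dMye over FF was 1.23 (SE 0.213, adjusted p = 0.000127) under PCN and 0.82 (SE 0.208, adjusted p = 0.0062) under DMSO. Gm16083 overlaps Cd55 on the other strand, and whether counting used strand is not stated in the labels.

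Under PCN 8 of the 9 genes were called, these 7 and C5ar1, all higher in dMye, where 27.6% of all tested genes were called and 16.2% were called higher. Under DMSO the 7 were called, again higher, against 21.8% of all genes called and 13.9% called higher. The median log2 fold change of the 9 genes was 1.11 under PCN and 0.81 under DMSO, beside 0.00 and 0.02 over all tested genes. The libraries of the genotypes did not overlap for 7 of the 9 genes with PCN, all higher in dMye, where 26.7% of all tested genes did not overlap and 19.1% were higher in every dMye library. With DMSO they did not overlap for 8 of the 9, where 23.6% of all tested genes did not overlap and 17.3% were higher in every dMye library. The eighth was C5ar1, lower in every dMye_DMSO library than in every FF_DMSO library but not called.

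**Figure D2:**
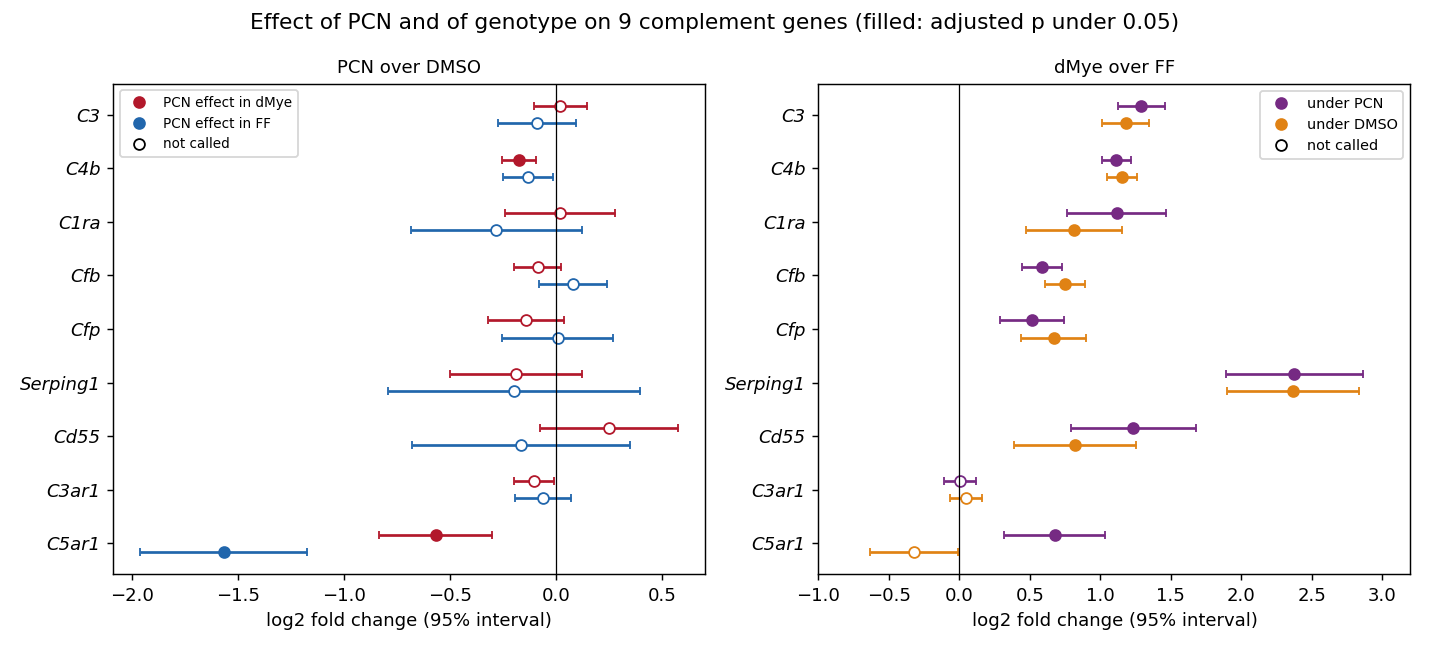
Log2 fold changes of the 9 complement genes with 95% intervals, for PCN over DMSO in each genotype (left) and for dMye over FF under each agent (right). Filled points have an edgeR adjusted p under 0.05. On the left C5ar1 stands away from 0 in both genotypes, at -0.57 in dMye and -1.57 in FF, and on the right the first 7 genes lie between 0.52 and 2.38.

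Mesothelial and fibroblast markers were also higher in dMye, while some markers of other leukocytes were lower. All 12 mesothelial markers were higher in dMye, with a median log2 fold change of 2.60 under PCN and 2.57 under DMSO, and none of them was at 0 in any group. Of 11 tested fibroblast markers, 8 were higher under each agent and Thy1 was lower under DMSO, with medians of 1.82 and 1.72. Of the 10 macrophage markers, 7 were higher and 1 lower with PCN, and 3 were higher and 2 lower with DMSO. Of 8 B cell markers, 3 were lower in dMye with PCN and 6 with DMSO, with median log2 fold changes of -0.74 and -1.66. Under DMSO, 3 of 6 T cell, 3 of 5 neutrophil and 2 of 5 dendritic cell markers were lower in dMye as well. Beside these counts, 27.6% of all tested genes were called under PCN and 16.2% called higher, the rest lower. Under DMSO 21.8% were called and 13.9% called higher. The part of these cells in the complement differences was not tested, and in bulk samples fewer cells of a type and less RNA per cell cannot be told apart. Relative to C3ar1 in the same library, C3 was at 80.4 ± 9.44% in dMye_PCN, 73.8 ± 6.49% in dMye_DMSO, 32.8 ± 2.03% in FF_PCN and 33.5 ± 1.12% in FF_DMSO (SD, n = 6, 6, 3 and 3). C3ar1 was not called between genotypes, so this share repeats the C3 difference and does not correct for cell content.

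**Figure D3:**
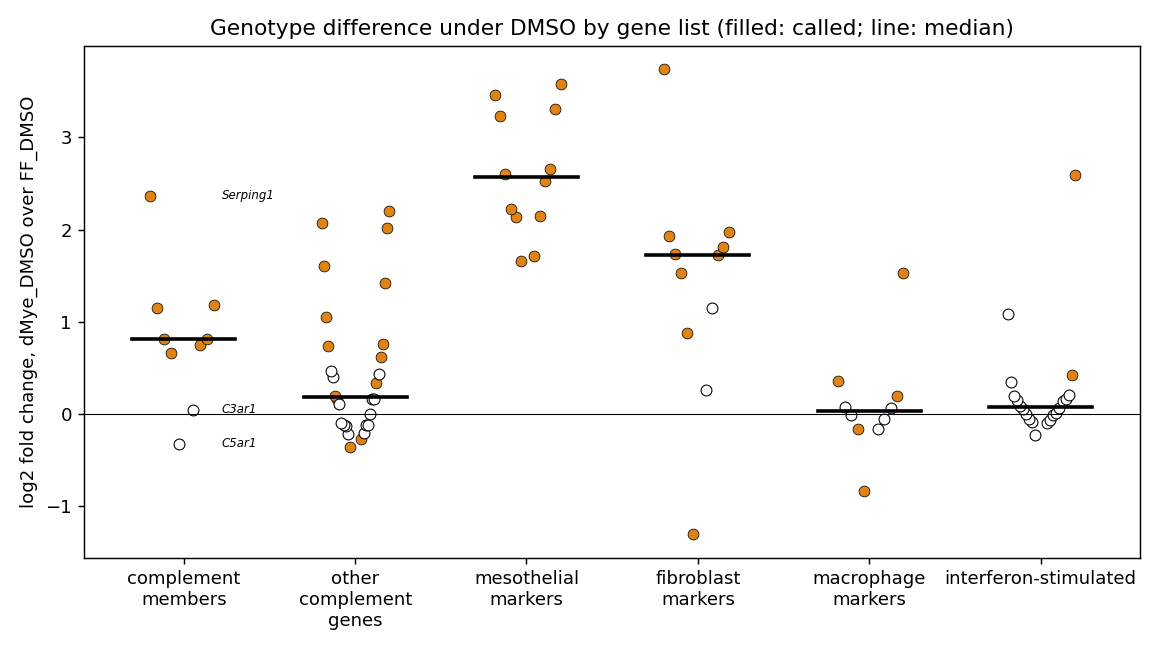
Log2 fold change of dMye_DMSO over FF_DMSO for the tested genes of 6 lists, one point per gene, filled where the adjusted p is under 0.05, with the list median as a line. The 9 complement genes have a median of 0.81, the other complement genes 0.18, mesothelial markers 2.57, fibroblast markers 1.72, macrophage markers 0.03 and interferon-stimulated genes 0.08.

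Within groups, the 9 genes did not vary as 1 block. The deviations of each library from its group mean, on the log2 scale over 18 libraries, were compared as a description that carries no test. C3 and C4b deviated with the fibroblast sum, with Pearson r of 0.59 and 0.58, or 0.51 and 0.45 without the 2 most extreme libraries. With the mesothelial sum, r was 0.63 for C1ra, 0.48 for C3 and 0.47 for C4b, or 0.44, 0.36 and 0.49 without its own 2 most extreme libraries. Other genes that were higher in dMye did not follow these sums in the same way. Serping1 was at 0.17 with the mesothelial sum and -0.003 with the fibroblast sum, and Cd55 at -0.13 and -0.32. Cfb and Cfp were at -0.03 and 0.26 with the mesothelial sum, and C1ra was at 0.15 with the fibroblast sum. C3 and C4b deviated against the macrophage sum, with r of -0.61 and -0.45, or -0.67 and -0.42 without its 2 most extreme libraries. Cfb and Cfp deviated against the fibroblast sum, with r of -0.72 and -0.62, or -0.56 and -0.22 without its 2 most extreme libraries. They deviated with the macrophage sum, with r of 0.67 and 0.77, or 0.43 and 0.49 without its own 2 most extreme libraries. Lyz2 was the largest part of the macrophage sum. The library dMye_DMSO 5 was among the extremes for the fibroblast and macrophage sums, and these values share libraries and depth. Between members, r was highest for Cfb with Cfp at 0.66, C1ra with Serping1 at 0.56 and C3 with C4b at 0.54, and lowest for C4b with C5ar1 at -0.61. C5ar1 was at -0.08 with the fibroblast sum, -0.14 with the mesothelial sum and 0.33 with the macrophage sum.

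Per kilobase of exon, which allows genes to be ranked, C3ar1 led in all groups, at 60.6 ± 3.17 in dMye_PCN, 64.9 ± 3.25 in dMye_DMSO, 58.3 ± 2.63 in FF_PCN and 61.7 ± 2.96 CPM per kb in FF_DMSO. In dMye cells C3 came next, at 40.6 ± 3.99 with PCN and 40.0 ± 3.15 CPM per kb with DMSO, followed by Cfb, and its range did not touch those of its neighbours. In FF cells Cfb, Cfp and C3 lay together, between 16.0 and 19.6 CPM per kb on average, with overlapping ranges. C4b and Cfp overlapped in both dMye groups, and C1ra, Serping1, C5ar1 and Cd55 averaged below 4 CPM per kb in all groups. Under DMSO, C5ar1 ranked sixth in FF cells with a range clear of its neighbours, and in dMye cells seventh with a range that overlapped that of C1ra.

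C3ar1 encodes the receptor for C3a, a G protein-coupled receptor of myeloid cells (chr6:122847138-122856161, minus strand). It was at 243 to 279 CPM in dMye_PCN (median 261) and 261 to 303 CPM in dMye_DMSO (median 279.5). In FF_PCN the libraries had 242, 264 and 247 CPM, and in FF_DMSO 254, 279 and 264 CPM. All groups overlapped. With PCN over DMSO the log2 fold change was -0.10 (95% interval -0.20 to -0.01, adjusted p = 0.28) in dMye and -0.06 (-0.19 to 0.07, adjusted p = 0.618) in FF. The genotype difference had an interval of -0.11 to 0.12 under PCN (adjusted p = 0.962) and -0.07 to 0.16 under DMSO (adjusted p = 0.581), and the sign under PCN changed with the scaling method.

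C5ar1 encodes the main receptor for C5a, which draws neutrophils and macrophages to sites of inflammation (chr7:16246743-16259540, minus strand). The 6 dMye_PCN libraries ran from 3.21 to 6.30 CPM (median 5.07) and the 6 dMye_DMSO libraries from 7.09 to 7.94 CPM (median 7.53). The FF_PCN libraries were at 3.96, 2.62 and 2.60 CPM, and the FF_DMSO libraries at 10.7, 8.99 and 8.04 CPM. In both genotypes every PCN library lay below every DMSO library, and the gap was wider in FF. The log2 fold change of PCN over DMSO was -0.57 (SE 0.129, adjusted p = 0.0224) in dMye and -1.57 (SE 0.19, adjusted p = 7.08e-06) in FF. Tested directly, the effect in dMye minus that in FF was 1.00 on the log2 scale (95% interval 0.52 to 1.48, SE 0.229, adjusted p = 0.0306).

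The C5ar1 level of dMye relative to FF depended on the agent. Under PCN it was 1.60-fold higher in dMye (log2 fold change 0.68, SE 0.173, adjusted p = 0.00529). Under DMSO the log2 fold change was -0.33 (95% interval -0.64 to -0.01, adjusted p = 0.13, or 0.0443 when these groups were fitted alone), although no dMye_DMSO library reached the lowest FF_DMSO library. As a share of C3ar1 counts in the same library, C5ar1 was at 1.96 ± 0.455% in dMye_PCN, 2.69 ± 0.155% in dMye_DMSO, 1.23 ± 0.357% in FF_PCN and 3.49 ± 0.634% in FF_DMSO (SD, n = 6, 6, 3 and 3). The order of the groups was the same as in CPM. Because C3ar1 itself differed little between the groups, this share repeats the CPM values and is no separate evidence.

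Of the 9 genes, C5ar1 and C4b were called in dMye under PCN, both lower, where 2.08% of all genes were called and 1.14% were called lower. In FF the one called gene was C5ar1, lower, against 13.8% called and 6.98% called lower. The fall of C4b in dMye was small, to 0.887 of the DMSO level (log2 fold change -0.17, SE 0.0389, adjusted p = 0.0212). In FF the C4b log2 fold change was -0.13 (95% interval -0.25 to -0.01, adjusted p = 0.133), and the difference of -0.04 (interval -0.18 to 0.10) was not called. With upper-quartile scaling C4b was also called in FF (adjusted p = 0.0495). In the test of the difference C5ar1 was again the one gene called, where 1.42% of all genes were called and 0.746% were called higher. The PCN and genotype comparisons share control libraries, so they are not independent of each other.

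The C5ar1 calls in dMye and for the difference lay near the threshold, and leaving out some single libraries ended them. The dMye fall had an adjusted p of 0.0527 without dMye_PCN 3 and 0.0589 without dMye_DMSO 5 and 6 together, with log2 fold changes of -0.57 and -0.56. The C4b fall in dMye had 0.0613 without dMye_PCN 6 and 0.0555 without dMye_DMSO 1. For the C5ar1 difference, the adjusted p was 0.0513 without dMye_PCN 1, 0.0512 without dMye_PCN 6, 0.099 without FF_PCN 2, 0.101 without FF_PCN 3, 0.107 without FF_DMSO 1, 0.0623 without FF_DMSO 2 and 0.0519 without FF_DMSO 3, with log2 values between 0.90 and 1.11. The C5ar1 genotype difference under PCN had an adjusted p of 0.0502 without FF_PCN 2. The fall in FF held under all the alternatives run, with log2 fold changes between -1.81 and -1.46.

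**Figure D4:**
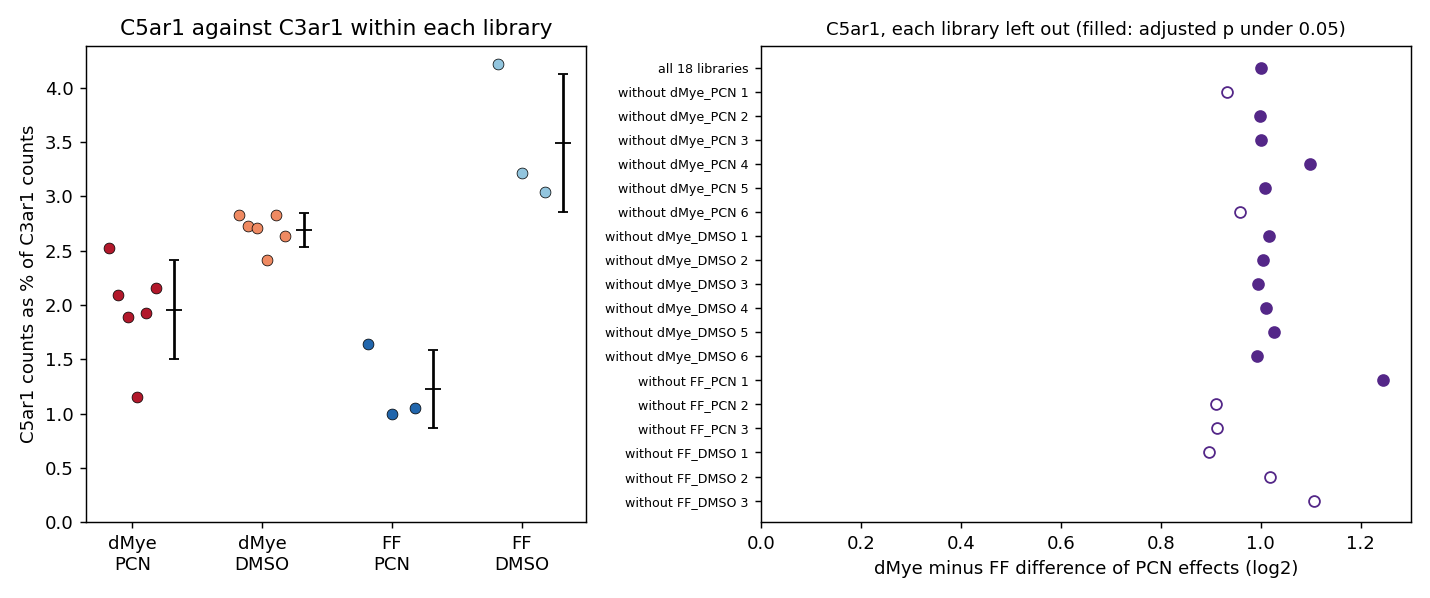
Left, C5ar1 counts as a percent of C3ar1 counts in each library, with mean ± SD. Right, the difference of the PCN effects on C5ar1 (dMye minus FF, log2) with all 18 libraries and with each library left out, filled where the adjusted p is under 0.05. The share is lowest in FF_PCN at 1.23%, and the difference stays above 0 throughout while 7 of the 18 omissions end the call.

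Markers of other cells moved with PCN as well. In FF the neutrophil sum was 116 to 125 CPM with PCN and 154 to 158 CPM with DMSO, where 2 of 5 tested markers were called lower, and its defining marker Ly6g was at 0 in all groups. Csf3r made up most of this sum, with FF means of 98.5 CPM with PCN and 122 CPM with DMSO. S100a8 averaged 1.65 and 2.07 CPM there and S100a9 0.498 and 0.828 CPM, so the sum cannot be read as an amount of neutrophils. In dMye the neutrophil sum was 98.8 to 116 CPM with PCN and 100.3 to 119 CPM with DMSO, and the groups with PCN and with DMSO overlapped. Of the macrophage markers, which include the complement receptor gene Itgam, 7 of 10 were lower and 1 was higher with PCN in FF, and 1 was lower in dMye. The B cell sum in FF was 94.2 to 106 CPM with PCN and 106 to 116 CPM with DMSO, without overlap, and 4 of 8 B cell markers were called lower. Cd22 made up most of that sum, with FF means of 87.9 CPM with PCN and 90.2 CPM with DMSO. In dMye the B cell sum was 84.9 to 95.4 CPM with PCN and 80.9 to 96.1 CPM with DMSO. Over all tested genes, 6.98% were called lower with PCN in FF and 1.14% in dMye. The part of all these markers in the change of C5ar1 was not tested.

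The other 6 components and regulators were not called under PCN in either genotype by edgeR. For C3 the log2 fold change was 0.02 in dMye (95% interval -0.11 to 0.15) and -0.09 in FF (-0.27 to 0.09). For Cfb it was -0.09 in dMye (-0.20 to 0.02) and 0.08 in FF (-0.08 to 0.24). For the genes with few counts the intervals were wider, as for Serping1, at -0.19 in dMye (-0.50 to 0.12) and -0.20 in FF (-0.79 to 0.40), where leaving out FF_PCN 3 gave -0.84 (adjusted p = 0.033). C1ra was at 0.02 in dMye (-0.24 to 0.28) and -0.28 in FF (-0.69 to 0.12), and Cfp at -0.14 (-0.32 to 0.04) and 0.01 (-0.25 to 0.27), a value in FF whose sign changed with the scaling method. Cd55 was at 0.25 in dMye (-0.07 to 0.58) and -0.16 in FF (-0.68 to 0.35). The median log2 fold change of the 9 genes was -0.10 in dMye and -0.13 in FF, beside -0.01 and 0.01 over all tested genes.

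Other genes of the cascade were read from 4 lists of 53 genes, of which 28 were tested. Of these, 15 were higher and 1 lower in dMye under PCN, and 12 were higher and 2 lower under DMSO. Over all tested genes, 16.2% were called higher under PCN and 13.9% under DMSO. The initiating components had 8 of 10 higher under PCN and 7 of 10 under DMSO. C1s1, the protease partner of C1r, differed by 2.14 under PCN and 2.21 under DMSO on the log2 scale, and C2, the partner of C4 in the convertase, by 2.57 and 2.07. The recognition molecule ficolin A (Fcna) differed by 1.43 and 1.61, and the scavenger collectin Colec12 by 1.20 and 1.43. Among the regulators, clusterin (Clu) was higher by 2.11 under PCN and by 2.02 under DMSO.

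Terminal components were scarce. Of 7 listed, only C8a and C8g were tested. Between genotypes C8a had log2 fold changes of -0.25 under PCN and -0.11 under DMSO (adjusted p = 0.763 and 0.895), and C8g had 0.04 and 0.40 (adjusted p = 0.942 and 0.409). Hc, the gene of C5, had 2 counts over all libraries. The ligand gene of C5ar1 was thus not detectable beyond 1 count in a library. Factor D (Cfd) had 3 counts in all and factor I (Cfi) 20. Of the 8 other receptors, Itgam (complement receptor 3 alpha chain) was higher in dMye by 0.38 under PCN and 0.20 under DMSO on the log2 scale, and its partner Itgb2 was lower by log2 fold changes of -0.12 and -0.26. Vsig4, a macrophage receptor for C3b, was higher by 0.70 and 0.76.

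With PCN, 1 of the 28 genes fell in dMye and 7 fell in FF, where 1.14% and 6.98% of all tested genes were called lower. Thrombomodulin (Thbd) fell in both, with a log2 fold change of -0.35 (adjusted p = 0.011) in dMye and -0.85 (adjusted p = 6.56e-06) in FF, and the difference of 0.50 was called (adjusted p = 0.0452). Among receptors, Cd93, Itgam, Itgb2 and Calr fell in FF by 0.39, 0.27, 0.23 and 0.18 on the log2 scale, and C1rl, a C1r-like protease gene, fell by 1.08. The median over the 28 genes was -0.10 in dMye and -0.15 in FF.

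The genes whose deviations were most like those of a member were named by Pearson r over 18 libraries. For C5ar1 they were Cyp4f16 at 0.85, Alkbh4 at 0.82 and Olfr954 at 0.80. For C3ar1 they were Il1rn, the interleukin-1 receptor antagonist, at 0.94, Lin52 at 0.89 and Thoc5 at 0.89. For C3 they were Rdx at 0.90, Fam222b at 0.90 and P2ry1 at 0.86, and for C4b Arhgap27 at 0.85, Fstl1 at 0.85 and Igsf3 at 0.84. For Cfb they included Nedd1 and Pigf, both at 0.86, and for Cfp they were Jpt1, Mrps10 and Tmem86a at 0.91, 0.90 and 0.90. The nearest genes to C1ra, Serping1 and Cd55 were Gucd1 at 0.82, Rarb at 0.80 and Amn1 at 0.80. These were picked as the highest of all tested genes, so the values describe these libraries and no more.

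Promoter windows from RefSeq (GRCm38.p6, 250 bases before to 50 after the gene start) were found for 6 of the 9 members: C3, C1ra, Cfp, Cd55, C3ar1 and C5ar1. Positions are counted from the RefSeq start. The spans given above for C5ar1 (to 16259540, minus strand) and C1ra (from 124512405, plus strand) begin further upstream. By those spans, most of the C5ar1 and C1ra windows lies inside the gene. Shown are C5ar1, which fell with PCN, and C3 and C1ra, which differed between genotypes, each read 5′ to 3′ on the strand of the gene. Capitals mark matches to 4 searched motifs on either strand: the interferon response element GAAANNGAA, the interferon gamma site TTCNNNGAA, the kappaB motif GGGNNTTCC and the C/EBP motif TTGCNNAA.
C5ar1 promoter (chr7:16259289-16259588, minus strand): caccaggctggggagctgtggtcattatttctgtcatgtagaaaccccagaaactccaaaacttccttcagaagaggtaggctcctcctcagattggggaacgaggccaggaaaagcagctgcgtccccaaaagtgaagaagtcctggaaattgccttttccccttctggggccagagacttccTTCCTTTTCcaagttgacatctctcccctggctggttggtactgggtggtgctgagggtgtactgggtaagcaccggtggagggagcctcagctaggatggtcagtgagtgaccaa
C3 promoter (chr17:57228087-57228386, minus strand): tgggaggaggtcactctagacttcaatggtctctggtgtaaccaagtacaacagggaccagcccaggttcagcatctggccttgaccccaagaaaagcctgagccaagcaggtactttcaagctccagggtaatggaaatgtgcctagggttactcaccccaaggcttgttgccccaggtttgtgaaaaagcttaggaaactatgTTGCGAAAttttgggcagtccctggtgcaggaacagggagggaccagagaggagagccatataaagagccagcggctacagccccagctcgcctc
C1ra promoter (chr6:124512371-124512670, plus strand): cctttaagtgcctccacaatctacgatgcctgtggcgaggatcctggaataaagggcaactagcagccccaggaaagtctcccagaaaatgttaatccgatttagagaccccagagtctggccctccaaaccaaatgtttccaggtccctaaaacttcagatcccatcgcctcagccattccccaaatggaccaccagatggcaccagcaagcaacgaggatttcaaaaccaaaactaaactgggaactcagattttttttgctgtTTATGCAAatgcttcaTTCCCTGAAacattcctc

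The C5ar1 window held a match to the interferon response element at -66, on the strand opposite to the gene. Such a match is in 8.56% of the 32851 RefSeq windows of 300 bases. The C3 window held a C/EBP match at -45, a motif found in 10.8% of windows, and the C1ra window held one at +17 beside an interferon gamma site at +33, a motif present in 8.30% of windows. Cd55 had a kappaB match at -60, found in 5.82% of windows, and the C3ar1 and Cfp windows matched none of these 4 motifs. The nuclear receptor half-site AGGTCA was at -243 in C3 and at +39 in Cfp, and is present in 16.3% of windows. The half-site AGTTCA, present in 14.0% of windows, was in none of the 6, the C5ar1 window included. Such matches describe letters in a window and not sites in use. Of 20 interferon-stimulated genes, 6 were higher in dMye under PCN and 2 under DMSO, beside 16.2% and 13.9% of all tested genes. With PCN in FF 3 of them were lower, beside 6.98% of all tested genes.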

How the data were processed

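Total RNA from 18 libraries of cultured peritoneal macrophages was sequenced. The authors deposited expected counts, estimated read numbers per gene that can be fractional. Per the submitters' processing notes the genome build was mm10. The aligner, counting tool, annotation and strand setting were not given in the sources used here. Of 21831 genes, 3287 were at 0 in all libraries once rounded, and 26 rows had date-like symbols.

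Expected counts were rounded and fitted with edgeR 4.0.16 in R 4.3.3 (filterByExpr, TMM, robust quasi-likelihood, 18 libraries in 4 groups, no covariates). The 5 contrasts were PCN over DMSO in each genotype, the difference of these effects, and dMye over FF under each agent. P-values were adjusted by Benjamini-Hochberg over 13409 genes, a gene was called at an adjusted p under 0.05, and SE is the fold change over the root of F. The biological coefficient of variation was 9.69%. No replicate pair agreed within sampling noise (chi-square per gene 3.83 to 47.0). Levels are CPM of unscaled totals, which ran from 22438223 to 30228017 in dMye_PCN, 21993697 to 30201368 in dMye_DMSO, 24213246 to 25730712 in FF_PCN and 24743876 to 27502177 in FF_DMSO. Coordinates and exon lengths come from the GENCODE annotation of GRCm38, matched by symbol.

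The alternatives comprised upper-quartile and RLE scaling, no filter, a filter of 1 CPM in 6 libraries, unrounded counts, DESeq2 1.42.0, limma-voom (limma 3.58.1), fits of the compared groups alone and each library left out. A further fit without dMye_DMSO 5 and 6 was chosen after seeing the data. Named genes were the 9 members, up to 4 called genes of each other complement list per contrast by smallest p, and the 3 genes most like each member, and some genes that this rule selects are not reported here. The members and lists were chosen with earlier results of these data known. The fit was tested on simulated counts. Among further marker lists, dMye was lower than FF for 3 B cell, 1 T cell, 1 neutrophil and 1 dendritic cell marker under PCN and for 6, 3, 3 and 2 under DMSO, and higher for 1 T cell and 1 mast cell marker under PCN. Over all tested genes, 27.6% were called under PCN and 16.2% called higher, and 21.8% and 13.9% under DMSO.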

Additional observations from a re-analysis of the deposited data

Results flagged for a closer look

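C5ar1 differed in its response to PCN between the genotypes: the effect in dMye minus that in FF was 1.00 on the log2 scale (edgeR interaction test, adjusted p = 0.0306). C5ar1 was lower in 6 of 6 dMye_PCN and 3 of 3 FF_PCN libraries than in every DMSO library of the same genotype.

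Cfp in the library dMye_DMSO 5 was at 60.3 CPM, with the next library of that group at 48.3 CPM. The gap took a share of 0.641 of the group's range, over Dixon's critical value for a group of that size. Of 18 groups of 6 libraries examined, this was the 1 such value, and chance gives about 1 in 20.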

How the results depend on the processing

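The genotype differences of C3, C4b, C1ra, Cfb, Cfp, Serping1 and Cd55 kept their direction and their call under all alternatives run. The number of the 9 genes called for PCN in FF was 2 with upper-quartile scaling, where C4b was added (adjusted p = 0.0495), and the number called for PCN in dMye was 1 without dMye_DMSO 5 and 6. With 1 library left out it was 1 to 2 in dMye, 1 to 2 in FF, 0 to 1 for the difference, 7 to 8 between genotypes under PCN and 7 to 7 under DMSO. Serping1 was called for PCN in FF without FF_PCN 3 (log2 -0.84, adjusted p = 0.033). With the compared groups alone, C5ar1 was also called between genotypes under DMSO (-0.33, adjusted p = 0.0443). No paired analysis was possible because the labels carry no replicate numbers that the groups share.

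Over all genes, PCN in dMye called 279, against 590 by DESeq2, 144 with the compared groups alone, 179 without dMye_DMSO 5 and 6, and 137 to 371 with 1 library left out (137 without dMye_PCN 3, 144 without dMye_PCN 4, 166 without dMye_DMSO 2, 167 without dMye_PCN 6). The difference called 190, against 407 by DESeq2 and 42 to 261 with 1 library left out. It called 42, 104 and 50 without FF_DMSO 1, 2 and 3, 105, 62 and 93 without FF_PCN 1, 2 and 3, 119 without dMye_DMSO 2, and 122 and 125 without dMye_PCN 1 and 2. The ranges were 1202 (without FF_DMSO 1, against 1851 with all) to 2175 for PCN in FF, 2625 to 4151 between genotypes under PCN and 2056 to 3313 under DMSO. With upper-quartile scaling the share of calls that were higher was 31.3% for PCN in dMye (45.2% with TMM), 38.2% for PCN in FF (49.4%), 74.8% between genotypes under PCN (58.8%) and 76.0% under DMSO (64.0%), and for the difference without a filter it was 67.3% (52.6%).

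Sign changes were limited to uncalled values, and the cause was not tested. For Cfp with PCN in FF they were -0.026 with upper-quartile scaling, -0.0114 without a filter, -0.00706 with the compared groups alone and -0.00349 without dMye_DMSO 5 and 6, the last of which also gave -0.0732 for C1ra with PCN in dMye and -0.0307 for the Serping1 difference. C3ar1 between genotypes under PCN was -0.00418 with RLE and -0.00432 with DESeq2. With 1 library left out, log2 values for PCN in FF ran from -0.0905 to 0.0645 for Cfp, -0.84 to 0.0565 for Serping1 and -0.39 to 0.00424 for Cd55. For PCN in dMye they ran from -0.00631 to 0.0571 for C3 and -0.0402 to 0.0811 for C1ra. For the difference they ran from -0.0723 to 0.00354 for C4b, -0.244 to 0.652 for Serping1 and -0.0812 to 0.00803 for C3ar1, and for C3ar1 between genotypes from -0.0247 to 0.0383 under PCN and -0.00127 to 0.0864 under DMSO.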
